A study of Homo sapiens with 6 samples.

Results

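The core hepatocyte identity transcription factors examined here are 8 genes: HNF4A, FOXA1, FOXA2, FOXA3, CEBPA, CEBPB, ONECUT1 and PROX1. They were taken by name, and each matched 1 of the 60240 Ensembl gene rows of the deposited table. These genes and the lists of other genes below were chosen with earlier results of these data known. Their shares beside those of all tested genes are therefore descriptions only. All 8 passed the filter on low values, as did 18723 genes in all. The samples were HepG2, a line of human hepatocellular carcinoma cells, labelled as control (3 libraries) or given 100 ng/ml of recombinant GDF11 protein for 24 hours (3 libraries). GDF11 is a secreted ligand of the TGF-beta family. A single tumour line of this kind is a model of a liver cell and not of the tissue. The labels call the libraries of a group biological replicates.

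These factors bind liver promoters and enhancers together and hold hepatocytes in their differentiated state. HNF4A is a nuclear receptor on which much of the secretory and metabolic program of the hepatocyte depends. The FOXA proteins are forkhead factors that open chromatin at liver enhancers. The C/EBP proteins are basic leucine zipper factors, CEBPA linked to metabolism and growth arrest and CEBPB to the acute phase response and regeneration. ONECUT1, also called HNF6, and the homeobox protein PROX1 act early, when hepatoblasts form and choose between the hepatocyte and bile duct fates. Several of them bind each other's promoters, so that they form a network.

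HNF4A is transcribed from 2 start regions, and the RefSeq promoter table holds a window for each. Both are shown because binding of other factors of the network to them is a known part of its wiring. Windows are the 250 bases before a start, on the plus strand of GRCh38.p14, and capitals mark matches to the motif named after them.
HNF4A upstream start, chr20:44355449-44355698: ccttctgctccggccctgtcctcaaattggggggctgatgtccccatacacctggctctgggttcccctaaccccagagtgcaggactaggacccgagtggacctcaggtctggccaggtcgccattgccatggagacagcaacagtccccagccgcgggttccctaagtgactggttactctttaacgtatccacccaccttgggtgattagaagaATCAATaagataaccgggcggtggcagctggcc
HNF4A downstream start, chr20:44400989-44401238: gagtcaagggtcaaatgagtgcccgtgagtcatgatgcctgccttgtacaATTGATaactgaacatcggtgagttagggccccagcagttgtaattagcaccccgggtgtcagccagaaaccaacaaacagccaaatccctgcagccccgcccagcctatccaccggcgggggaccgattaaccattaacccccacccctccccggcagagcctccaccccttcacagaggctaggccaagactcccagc

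The motif ATCAAT, bound by ONECUT proteins, lay once in each window, 33 to 28 bases before the upstream start and, on the other strand, 200 to 195 bases before the downstream start. Of 34943 windows of this length in the table, 5.58% held ATCAAT on either strand. The other motifs searched on both strands were TGTTTNC for FOXA (15.5% of windows), TTGCNNAA for C/EBP (9.06%), AGGTCA for nuclear receptors (12.1%) and GTCTAGAC for SMAD proteins (0.183%). None of these 4 occurred in the HNF4A windows, and no match overlapped another. For SMAD proteins only the whole GTCTAGAC was searched, and not shorter parts of it. In the windows of the other members held by the table (FOXA1, FOXA3, CEBPA, CEBPB and ONECUT1), the FOXA motif occurred once before FOXA1 and the nuclear receptor motif once before FOXA3. A match is a description of letters and shows no binding, and the table of expression values has 1 value per gene, which does not divide HNF4A between its starts.

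With GDF11, FOXA2, FOXA3, CEBPB and ONECUT1 fell, by 0.76 to 0.97 on the log2 scale, to levels between 43.7% and 57.2% of the control. HNF4A and CEBPA stood lower in all 3 GDF11 libraries than in any control but did not pass the test. FOXA1 and PROX1 were not called and their groups overlapped. The count was therefore 4 of 8 lower and 0 higher, where 10.8% of the 18723 tested genes were lower and 11.7% were higher by the same test (limma, Benjamini-Hochberg adjusted p under 0.05 over all tested genes), 22.4% in all. With the filter at 1.5 above the lowest value in place of 0.5, 1965 of 13051 tested genes were lower and 1753 higher. Of the 8 factors, 6 were lower and 0 higher under that filter. The groups did not overlap, with GDF11 below, for 6 of the 8, against 19.6% of all tested genes. The median log2 difference was -0.653 over the 8 genes and 0.00563 over all tested genes.

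Values below are given on 2 scales. The deposited values are variance-stabilised log2 values, whose floor, for genes with no reads, is 5.52. Normalised reads were computed back from them and share a common depth. The estimated depth lay between 47900000 and 53400000 reads per library. On the first principal component of the 1000 most variable genes, control replicate 3 lay at -21.6. It was displaced from controls 1 and 2 (-29.9 and -31.8) towards the treated libraries (27.3 to 28.6), but stayed far nearer to the controls. RNA integrity numbers were 9.6 to 9.9 in the controls and 9.4 to 9.6 with GDF11, so they moved with the treatment and the effects of both cannot be told apart fully. Defining hepatocyte genes were high in every library (ALB at 138880 to 255399 normalised reads). The leukocyte genes PTPRC, CD3E and MS4A1 and the endothelial gene TEK were at the lowest value in all 6. Other genes of the same lists were read, LYZ at 29189 to 76776 normalised reads, CD68 at 2246 to 3412, CD14 at 201 to 741, VWF at 4.87 to 76 and CDH5 at 6.55 to 28.0.

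**Figure D1:**
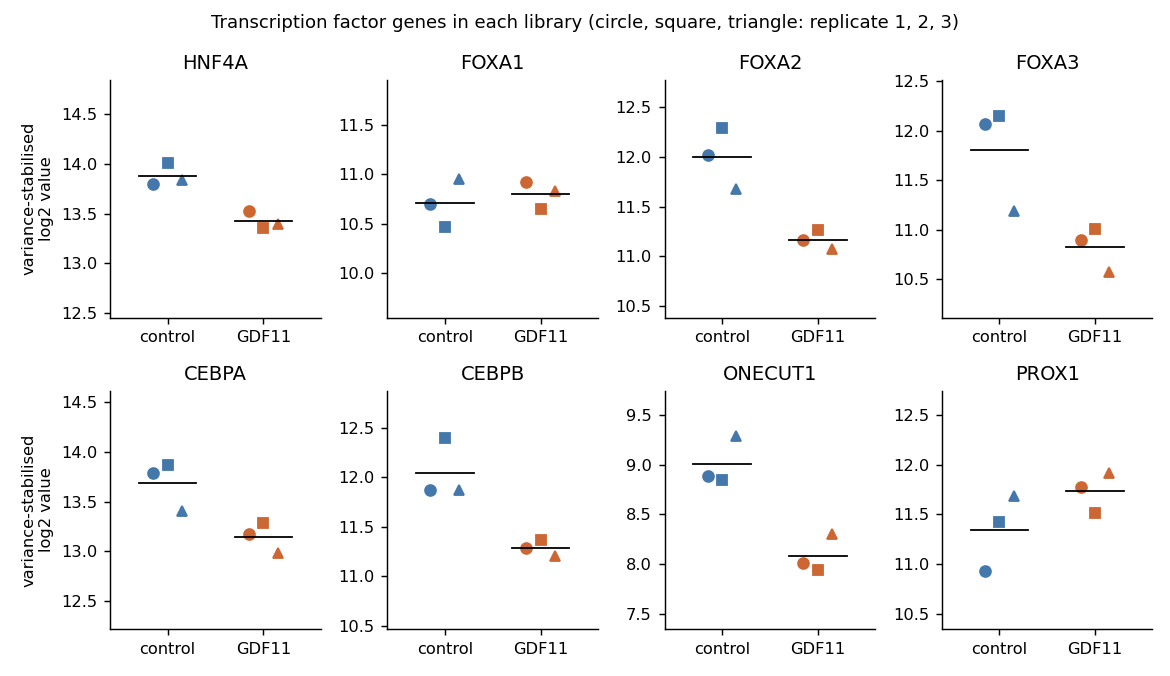
Variance-stabilised log2 value of each of the 8 factors in each library, with the group mean as a line; every panel spans the same range. FOXA2, FOXA3, CEBPA, CEBPB, ONECUT1 and HNF4A have all 3 GDF11 libraries below all controls, while FOXA1 and PROX1 overlap.

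HNF4A (ENSG00000101076.16, chromosome 20, 44355699 to 44434596 of GRCh38.p14) had 14206, 16364 and 14532 normalised reads in the controls and 11739, 10374 and 10613 with GDF11, each list being in the order of replicates 1, 2 and 3, as in all that follow. Every GDF11 library lay below every control, and the spread within each group was small. The log2 value went from 13.88 ± 0.109 to 13.42 ± 0.0941 (mean ± SD, n = 3 each), a difference of -0.46 ± 0.147 (SE; 95% interval -0.79 to -0.13). It missed the threshold narrowly (limma adjusted p = 0.0536). HNF4A was called lower under 8 of 20 alternatives, among them, with all libraries kept, the stricter filter (-0.46, adjusted p = 0.0447) and the correction for the trend of library values on transcript GC content and length (-0.56, adjusted p = 0.00467). Without control replicate 3, which lay between the other controls, it was -0.48 (adjusted p = 0.0138). HNF4A was not called with RNA integrity as a covariate (-0.31, adjusted p = 0.317) or with quantile normalization (-0.32, adjusted p = 0.105). Leaving out any other library also left it uncalled (-0.51 to -0.40).

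FOXA1 (ENSG00000129514.8, chromosome 14, 37589552 to 37595249) was measured at 1571, 1327 and 1888 normalised reads in the controls and at 1844, 1519 and 1724 with GDF11. The groups overlapped fully. The log2 difference was 0.09 ± 0.168, and its 95% interval of -0.29 to 0.47 leaves room for a modest change either way (adjusted p = 0.724). Its sign turned without control replicate 2 (-0.03) and with RNA integrity as a covariate (-0.16).

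FOXA2 (ENSG00000125798.14, chromosome 20, 22580998 to 22585490), the forkhead factor that also acts in gut and pancreas endoderm, had 4062, 4926 and 3192 normalised reads in the controls and 2201, 2365 and 2055 with GDF11. The GDF11 libraries lay close together below all controls, with control replicate 3 nearest to them. FOXA2 fell from 12.00 ± 0.307 to 11.16 ± 0.0974, by 0.83 ± 0.18 (adjusted p = 0.0115), to 54.4% of the control. Its call was lost without GDF11 replicate 3 (-0.79, adjusted p = 0.0519) or with RNA integrity as a covariate (-0.42, adjusted p = 0.222).

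FOXA3 (ENSG00000170608.3, chromosome 19, 45864326 to 45873797), the forkhead member most abundant in adult liver, had 4215 and 4443 normalised reads in control replicates 1 and 2, 2238 in control replicate 3, and 1818, 1969 and 1433 with GDF11. Here control replicate 3 was nearer to the treated libraries than to the other controls. On a scale with the mean of the other controls at 0 and the GDF11 mean at 1, it stood at 0.72. FOXA3 fell by 0.97 ± 0.26 (adjusted p = 0.0276), to 47.9% of the control. The difference was -1.28 without control replicate 3. The call ended without control replicate 1 (-0.84, adjusted p = 0.112), control replicate 2 (-0.80, adjusted p = 0.095), GDF11 replicate 1 (-1.01, adjusted p = 0.0669) or GDF11 replicate 3 (-0.85, adjusted p = 0.1), and with RNA integrity as a covariate (-0.21, adjusted p = 0.646).

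Whether the FOXA genes moved by unequal amounts was tested on their differences within each library. FOXA1 minus FOXA2 was -1.32, -1.82 and -0.73 in the controls and -0.24, -0.61 and -0.24 with GDF11. The groups did not overlap, and the balance moved by 0.93 towards FOXA1. The exact two-sided permutation p was 0.1, the smallest that 3 against 3 can give, and 0.4 adjusted over the 4 pairs tested. FOXA1 minus FOXA3 moved by 1.07 with overlapping groups (exact p = 0.2, adjusted 0.4), and FOXA2 minus FOXA3 by 0.14 (exact p = 0.5, adjusted 0.5). CEBPA minus CEBPB moved by 0.22 (exact p = 0.4, adjusted 0.5). An unequal response within either family was therefore not shown at this number of libraries.

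CEBPA (ENSG00000245848.3, chromosome 19, 33299934 to 33302534) had 14087, 14890 and 10700 normalised reads in the controls and 9129, 9835 and 8014 with GDF11. All GDF11 libraries were below the controls, with control replicate 3 between the groups at 0.63 of the way. The log2 difference was -0.54 ± 0.176 (95% interval -0.94 to -0.14, adjusted p = 0.0562), so CEBPA was not called. It was called lower under 8 of 20 alternatives, at -0.69 without control replicate 3 (adjusted p = 0.00304), -0.61 with library weights (adjusted p = 0.00185), and with all libraries at equal weight at -0.54 under the stricter filter (adjusted p = 0.0465) and -0.40 with quantile normalization (adjusted p = 0.0496). With the RNA integrity covariate it stood at -0.16 (adjusted p = 0.651).

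CEBPB (ENSG00000172216.6, chromosome 20, 50190583 to 50192690) had 3664, 5323 and 3653 normalised reads in the controls and 2408, 2547 and 2272 with GDF11. Control replicate 2 was the highest library, and the other controls still lay well above the treated ones. CEBPB fell from 12.05 ± 0.306 to 11.29 ± 0.0795, by 0.76 ± 0.179 (adjusted p = 0.0161), to 57.2% of the control. Its call ended without GDF11 replicate 1 (-0.76, adjusted p = 0.0634) or 3 (-0.72, adjusted p = 0.0674), and with RNA integrity as a covariate (-0.45, adjusted p = 0.264).

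ONECUT1 (ENSG00000169856.9, chromosome 15, 52755053 to 52790336) was the least abundant of the 8 and had 387, 374 and 537 normalised reads in the controls and 173, 162 and 231 with GDF11. The lowest control was well above the highest GDF11 library. ONECUT1 fell by 0.93 ± 0.178 on the variance-stabilised scale (adjusted p = 0.00666), which at this level keeps 0.781 of a true log2 change. In normalised reads it stood at 43.7% of the control. Here control replicate 3 lay on the far side of the other controls from the GDF11 libraries, at -0.53 on the position scale. ONECUT1 was the 1 member whose call held under all 20 alternative settings, with differences between -1.33 and -0.79.

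PROX1 (ENSG00000117707.16, chromosome 1, 213983151 to 214041510) had 1862, 2654 and 3215 normalised reads in the controls and 3418, 2818 and 3794 with GDF11. The highest control was above the lowest GDF11 library. The difference was 0.39 ± 0.214 (95% interval -0.10 to 0.87, adjusted p = 0.222), so PROX1 was not called. Control replicate 3 lay near the treated libraries, at 0.92 on the position scale, and without it PROX1 was called higher by 0.56 (adjusted p = 0.038). With library weights, which gave that library 0.218, it was higher by 0.66 (adjusted p = 0.00745). PROX1 stayed uncalled under the other 18 of 20 alternatives, and its difference was as small as 0.08 (highest limma adjusted p = 0.909).

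**Figure D2:**
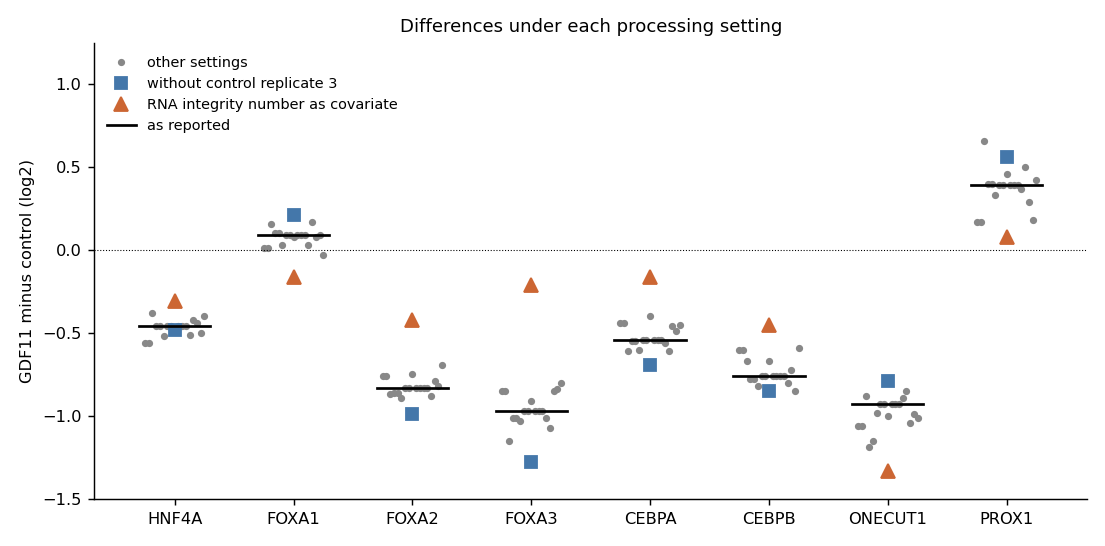
Log2 difference, GDF11 minus control, for each factor under each processing setting (grey points), without control replicate 3 (squares) and with RNA integrity as a covariate (triangles); the line is the value as reported. HNF4A, FOXA2, FOXA3, CEBPA, CEBPB and ONECUT1 stay below 0 under every setting run, and FOXA3 ranges from -1.28 to -0.21.

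Transcript GC content went with the direction for several of the 8 genes but not for ONECUT1. The GC content of the canonical transcript was 59.1% for FOXA2, 60.1% for FOXA3, 65.9% for CEBPA and 66.2% for CEBPB, against 50.4% for FOXA1 and 40.7% for PROX1. ONECUT1, at 47.4%, fell as well, and HNF4A was at 55%. After correction for the trend on GC content and length, 6 of the 8 were called lower, while the calls over all genes rose as well, from 2017 to 3072 lower. In that fit FOXA2 stood at -0.76, FOXA3 at -0.85, CEBPA at -0.44, CEBPB at -0.60 and ONECUT1 at -1.06. PROX1 stood at 0.17 after it (adjusted p = 0.476).

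Levels were compared between the genes only per length, as normalised reads per kb of the canonical GENCODE transcript. Which isoforms these cells use was not given in the sources used here, so the order holds for that choice of transcript. In the controls CEBPA was highest at 5085 ± 855 per kb (SD, n = 3), followed by HNF4A at 3237 ± 250, CEBPB at 2291 ± 523, FOXA3 at 1889 ± 631, FOXA2 at 1600 ± 342, FOXA1 at 455 ± 80.1, PROX1 at 304 ± 80.3 and ONECUT1 at 99.4 ± 20.7. CEBPB and FOXA3, FOXA3 and FOXA2, and FOXA1 and PROX1 overlapped in their control libraries, while the other neighbours did not. With GDF11 the order of the means was the same, from 3457 ± 353 for CEBPA to 43.4 ± 8.49 for ONECUT1. CEBPB, at 1310 ± 74.8, no longer overlapped FOXA3, at 905 ± 144. FOXA2, at 870 ± 61.1, overlapped FOXA3 in both groups.

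**Figure D3:**
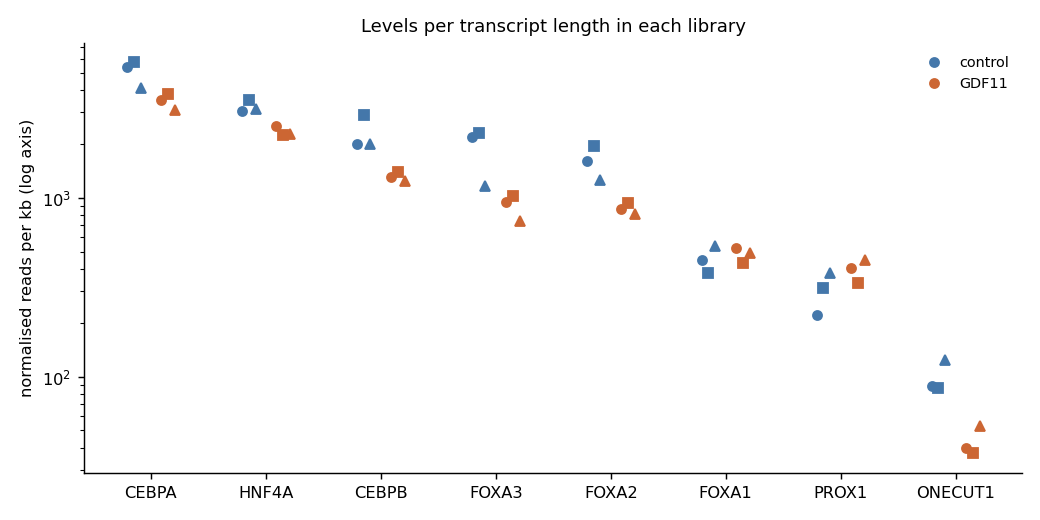
Normalised reads per kb of canonical transcript (log axis) of each factor in each control (blue) and GDF11 (orange) library, ordered by the control mean; symbols are replicates 1 (circle), 2 (square) and 3 (triangle). CEBPA is highest in both groups and ONECUT1 lowest, and FOXA1 and PROX1 sit together below the other FOXA genes.

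Of 7 relatives in the same families, 5 passed the filter on low values. ONECUT2 and CEBPD fell, 0 rose and 3 were not called, with a median difference of -0.115. Called lower were thus 40% and called higher 0%, against 10.8% and 11.7% of all tested genes.

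ONECUT2, the closest relative of ONECUT1, had 612, 690 and 762 normalised reads in the controls and 265, 269 and 446 with GDF11. It fell by 0.94 ± 0.196 (adjusted p = 0.00994), and control replicate 3 lay again on the far side from the treated libraries (position -0.24). CEBPD, a C/EBP protein of the acute phase response, had 859, 1097 and 931 normalised reads in the controls and 497, 565 and 538 with GDF11. It fell by 0.75 ± 0.15 (adjusted p = 0.00797), with control replicate 3 among the other controls at 0.07. Its call ended with RNA integrity as a covariate (-0.69, adjusted p = 0.083).

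CEBPG, a C/EBP protein without an activation domain of its own, was not called at 0.35 ± 0.16 (adjusted p = 0.144), although every GDF11 library (2179, 2341 and 2695 normalised reads) was above every control (2042, 1591 and 1975). HNF4G stood at -0.11 ± 0.163 (adjusted p = 0.645). CEBPE, a granulocyte factor, was near the lowest value and stood at 0.01 ± 0.1 (adjusted p = 0.972), with a sign that turned under 7 alternatives. ONECUT3 and PROX2 were too low to be tested.

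**Figure D4:**
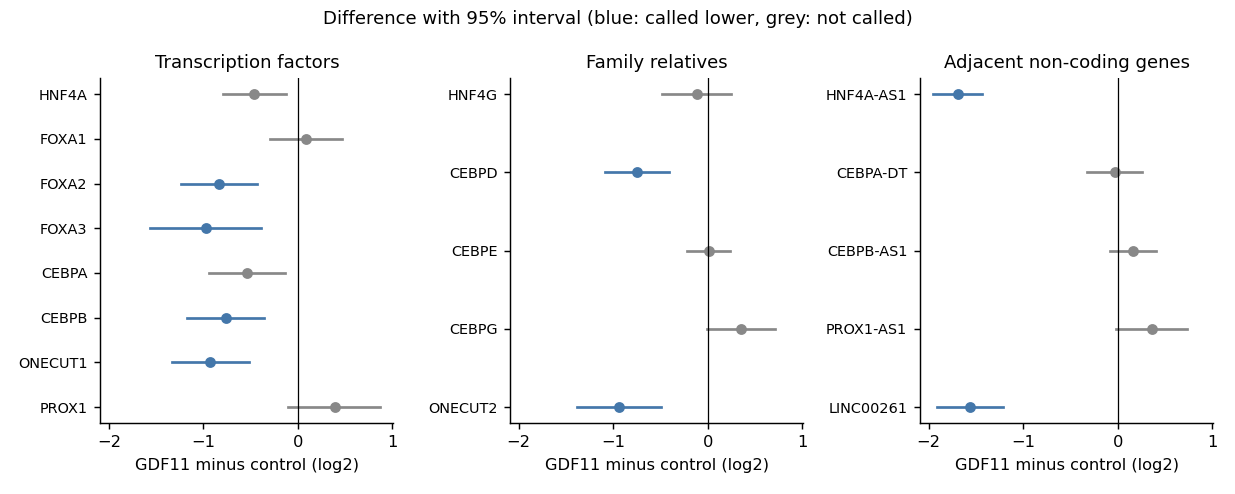
Log2 difference, GDF11 minus control, with its 95% interval for the 8 factors, the 5 tested relatives and the 5 adjacent non-coding genes (blue: called lower, grey: not called). The largest differences are those of HNF4A-AS1 at -1.69 and LINC00261 at -1.56.

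Of 5 non-coding genes next to the factors, all tested, 2 fell, 0 rose and 3 were not called, and those that fell lie beside HNF4A and FOXA2. Over all tested genes 10.8% were called lower and 11.7% higher, against 40% and 0% here. HNF4A-AS1, transcribed against HNF4A and overlapping it in the annotation, had 159, 176 and 161 normalised reads in the controls and 12.3, 9.7 and 16.1 with GDF11. The groups were far apart. It fell by 1.69 ± 0.116 on the variance-stabilised scale (adjusted p = 3.13e-05), which compresses changes at this level, and in normalised reads it stood at 7.67% of the control. HNF4A itself stood at 72.6%. The library kit marks strand, but whether the counting used it was not given in the sources used here, so reads of HNF4A and its antisense partner cannot be told apart with certainty.

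LINC00261, a long non-coding gene on the same strand as FOXA2 and beside it, had 3952, 3747 and 3647 normalised reads in the controls and 1037, 1261 and 1404 with GDF11. It fell by 1.56 ± 0.154 (adjusted p = 0.00022) to 32.6% of the control, with control replicate 3 among the controls (position 0.05). FOXA2 stood at 54.4% of its control, with control replicate 3 at 0.48. The difference in size between either pair of neighbours was not tested. CEBPA-DT, which starts opposite CEBPA, hardly varied: 226, 215 and 212 normalised reads in the controls and 207, 218 and 210 with GDF11 (-0.03 ± 0.13, 95% interval -0.32 to 0.26, adjusted p = 0.89; 0.09 once corrected for transcript GC and length). PROX1-AS1 stood at 0.36 ± 0.166 (adjusted p = 0.151) and was called higher without control replicate 1 (0.53, adjusted p = 0.0458). CEBPB-AS1 stood at 0.16 ± 0.108 (adjusted p = 0.304).

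Among 25 other transcription factors and nuclear receptors of the liver, all tested, 12 fell, 3 rose and 10 were not called. The share called lower was 48%, against 10.8% of all tested genes. The share called higher was 12%, close to the 11.7% of all tested genes. The median difference was -0.39, against 0.00563 over all tested genes. The 4 with the lowest p were MLXIPL, KLF15, NR1H4 and NR1I2. MLXIPL (ChREBP, the glucose-responsive lipogenic factor) had 5413, 6675 and 4091 normalised reads in the controls and 1246, 1317 and 1181 with GDF11, and fell by 2.01 ± 0.189 (adjusted p = 0.000167). KLF15, a factor of amino acid and glucose metabolism, went from 139, 173 and 216 normalised reads to 21, 25.1 and 25.8 (-1.47 ± 0.143, adjusted p = 0.000203). NR1H4, the bile acid receptor FXR, went from 2502, 2299 and 1769 to 633, 627 and 761 (-1.57 ± 0.171, adjusted p = 0.00036). NR1I2, the xenobiotic receptor PXR, moved the other way, from 563, 630 and 868 to 2087, 1879 and 2156 (1.48 ± 0.176, adjusted p = 0.000561).

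Others that fell were HHEX, a homeobox factor of early liver bud growth (-1.54 ± 0.184), GATA4 (-0.72 ± 0.179), RXRA, the shared partner of many nuclear receptors (-0.76 ± 0.189), and CREB3L3 (-0.67 ± 0.169); these 4 were chosen after their values were seen. TBX3 and FOXO1 also rose, by 0.93 ± 0.232 and 0.87 ± 0.173. The call of HHEX held with each library left out and with RNA integrity as a covariate, which ended those of the other 5. GATA4, RXRA and TBX3 were also not called once any library but control replicate 3 was left out (-0.76 to -0.56, -0.79 to -0.64 and 0.77 to 0.96), and CREB3L3 not without GDF11 replicate 1 (-0.70) or 2 (-0.57) or control replicate 2 (-0.56). The number called lower was 14 without control replicate 3 but 7 without control replicate 1, 6 without control replicate 2, and 6, 6 and 7 without GDF11 replicates 1, 2 and 3. It was 5 with RNA integrity as a covariate. Over all genes the number called lower, 2017 as reported, was 3993 without control replicate 3. It was 955 to 1189 without any other library and 721 with RNA integrity as a covariate.

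Cofactors and partners are the proteins through which these factors act or are kept in check. Of 19 tested, 2 rose, 1 fell and 16 were not called, with a median difference of -0.0692. That is 10.5% higher and 5.26% lower, where all tested genes gave 11.7% and 10.8%, so the list did not exceed the share over all genes. TRIB1, a pseudokinase that targets C/EBP proteins for degradation, had 2285, 2328 and 2630 normalised reads in the controls and 5549, 5716 and 5113 with GDF11. The groups were far apart, and TRIB1 rose by 1.15 ± 0.14 (adjusted p = 0.000627) under all 20 alternatives. The coactivator gene NCOA1 rose by 0.87 ± 0.208 (adjusted p = 0.0182), a call that ended without control replicate 1 or 2 (0.77 in both), without GDF11 replicate 3 (0.72) and with RNA integrity as a covariate (0.31). PPARGC1A, the HNF4A coactivator of fasting metabolism, fell by 0.99 ± 0.294 (adjusted p = 0.0408). That call ended without control replicate 1 (-1.12), 2 (-1.13) or 3 (-0.73) and without GDF11 replicate 1 (-0.88) or 2 (-0.82). HDAC3, a corepressor partner of PROX1, was not called (-0.57 ± 0.189, adjusted p = 0.0592). It was called lower under 6 of 20 alternatives, among them that without control replicate 3 (-0.73, adjusted p = 0.00478). Across the alternatives its difference was as small as -0.07 (highest limma adjusted p = 0.855).

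Genes known as targets of these factors in liver were taken as a list of 32, of which 26 passed the filter. Of these, 12 fell, 1 rose and 13 were not called, with a median difference of -0.547. Called lower were 46.2% and called higher 3.85%, against 10.8% and 11.7% of all tested genes. The 4 with the lowest p were MTTP, F7, HP and OTC. MTTP, which loads lipid onto apolipoprotein B and is a classical HNF4A target, had 4307, 4253 and 5881 normalised reads in the controls and 2028, 1570 and 1796 with GDF11 (-1.37 ± 0.178, adjusted p = 0.000903). F7, coagulation factor VII, went from 909, 1375 and 1059 to 417, 342 and 438 (-1.30 ± 0.181, adjusted p = 0.00134). HP, haptoglobin, an acute phase protein under C/EBP control, went from 11849, 16731 and 11890 to 5678, 5828 and 5002 (-1.26 ± 0.179, adjusted p = 0.00142). OTC, an enzyme of the urea cycle, was low throughout, at 18.4, 19.1 and 34.1 normalised reads in the controls and 0.965, 2.93 and 0.84 with GDF11 (-0.75 ± 0.113, adjusted p = 0.00196).

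Of the secreted proteins on this list, TTR, the textbook target of FOXA and HNF4A proteins, fell by 1.52 ± 0.238 (adjusted p = 0.00247), from 5464, 7458 and 3706 normalised reads to 1951, 1870 and 1613. ALB fell by 0.75 ± 0.172 (adjusted p = 0.0147), and was no longer called without any 1 of the GDF11 libraries (-0.80, -0.71 and -0.75 without replicates 1, 2 and 3), with RNA integrity as a covariate (-0.74, adjusted p = 0.0509) or with quantile normalization (-0.29). SERPINA1, for alpha-1-antitrypsin, stood at 0.05 ± 0.262 and was not called (adjusted p = 0.899), with a sign that turned without control replicate 3 (-0.18) or GDF11 replicate 1 (-0.01) and a value next to 0 with median centring or quantile normalization. CYP3A4, a target of the receptor encoded by NR1I2, was the single gene of the list that rose, by 0.57 ± 0.126 (adjusted p = 0.0124), at 19.6 to 34.8 normalised reads in the controls and 57.2 to 74.0 with GDF11. Its call was lost without GDF11 replicate 3 (0.51, adjusted p = 0.0514) and with RNA integrity as a covariate (0.52, adjusted p = 0.163), and the stricter filter left it untested. SERPINA1 and CYP3A4 were chosen after their values were seen. GYS2 and CRP were at the lowest value in all libraries.

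**Figure D5:**
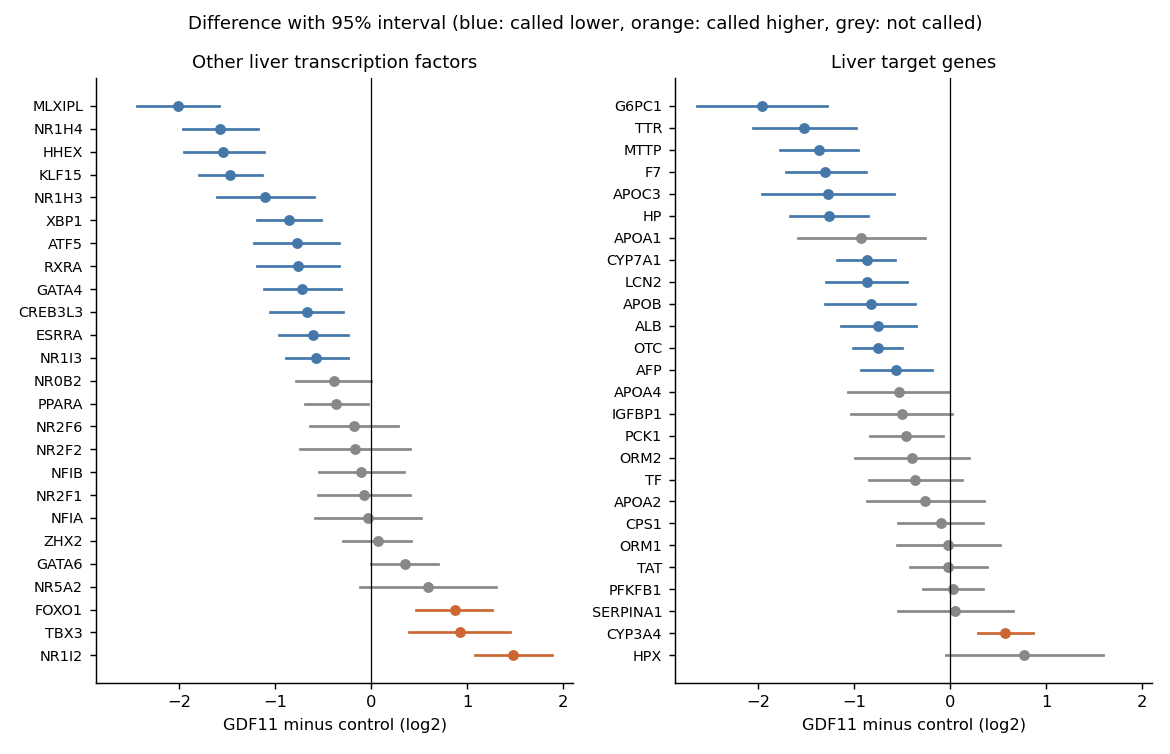
Log2 difference, GDF11 minus control, with its 95% interval for the 25 other liver transcription factors and the 26 tested target genes (blue: called lower, orange: called higher, grey: not called). In both lists 12 genes are called lower, from MLXIPL at -2.01 and G6PC1 at -1.96, and SERPINA1 sits at 0.05.

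Markers of bile duct and progenitor cells, the other fate of the hepatoblast, moved in both directions. Of 10, 7 were tested: 3 rose, 1 fell and 3 were not called. Called higher were 42.9% and called lower 14.3%, against 11.7% and 10.8% of all tested genes. SOX4, a factor of biliary development and a known TGF-beta target, had 566, 414 and 885 normalised reads in the controls and 3417, 3347 and 4020 with GDF11, and rose by 2.43 ± 0.234 (adjusted p = 0.000189). KRT19, a bile duct keratin, rose by 1.48 ± 0.212 (adjusted p = 0.00153), from 9991, 8940 and 6086 to 22754, 26422 and 20090. KRT7 rose by 0.71 ± 0.177 from 14.3 ± 6.87 to 56.4 ± 27 normalised reads (adjusted p = 0.0206), a call that ended without control replicate 2 (0.62) or GDF11 replicate 2 (0.54) or 3 (0.73) and with RNA integrity as a covariate (0.52). SOX9, the biliary master factor, fell by 0.54 ± 0.156 (adjusted p = 0.0366), and this held without control replicate 3 but was lost without each other library, at -0.62 to -0.48. In all, the call of SOX9 was lost under 8 of 20 alternatives. CFTR was at the lowest value in every library.

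Cell type markers were summed to see what moved beside the factors. Over all tested genes 10.8% were called lower and 11.7% higher. Of 8 hepatocyte markers 5 fell (62.5%) and 0 rose, and their summed level was 1506558 to 2000409 normalised reads in the controls and 1225168 to 1361759 with GDF11. All of these markers except FGB were also on the list of target genes, so the counts of these lists are not separate results. FGB, the fibrinogen beta chain, fell by 1.42 ± 0.159 (adjusted p = 0.000413), and APOB fell by 0.83 ± 0.207 (adjusted p = 0.0205), and was no longer called without control replicate 1 (-0.88) or GDF11 replicate 1 (-0.76) or 2 (-0.78) and with quantile normalization (-0.41). Of 8 stellate and fibroblast markers 3 were tested and 2 rose, COL1A1 by 3.22 ± 0.23 and PDGFRB by 0.92 ± 0.234 (adjusted p = 0.0227). COL1A1 was near the lowest value in the controls, at 3.12, 36.7 and 33.8 normalised reads against 719, 781 and 706 with GDF11, where the scale compresses changes (5.39 on a log2 scale of reads plus 1). The sum of these 8 was 759 to 1517 normalised reads in the controls and 2636 to 3286 with GDF11, while COL1A2, DCN, LUM and PDGFRA were at or next to the lowest value. DES was not called (0.13 ± 0.0955). The call of PDGFRB ended without control replicate 1 (0.67) or 2 (0.97), without GDF11 replicate 1 (0.80) or 2 (0.96) and with RNA integrity as a covariate (0.80).

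Of 6 endothelial markers 2 were tested and 1 fell, VWF by 0.87 ± 0.146 on the compressed scale, to 13.9% of the control in normalised reads (-2.64 on a log2 scale of reads plus 1), a call lost with RNA integrity as a covariate (-0.59). CDH5 was not called (-0.16 ± 0.151), and the sum was 53.8 to 97.3 in the controls and 13.2 to 33.4 with GDF11. Of 7 leukocyte markers 3 were tested and 1 fell, LYZ by 1.19 ± 0.157, which these cells express at 29189 normalised reads or more. CD14 (-0.76 ± 0.261) and CD68 (-0.04 ± 0.183) were not called. CD14 was called lower under 3 of 20 alternatives, among them that without control replicate 3 (-1.03, adjusted p = 0.00474). The sum of the leukocyte markers was 68859 to 80404 in the controls and 32536 to 34201 with GDF11. The part of these marker levels in the changes of the factors was not tested. In bulk RNA, fewer cells expressing a factor and less RNA of it per cell cannot be told apart.

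The genes whose profile over the 6 libraries lay nearest to each factor, by the root mean square difference of values centred on each gene's mean among 16204 other tested genes with a symbol, are given by name only. For HNF4A they were CREB3L4 (0.029) and DOLPP1 (0.033). For FOXA1 they were KAT2B (0.042) and FAM151B-DT (0.046), for FOXA2 CXCL16 (0.021) and PAQR7 (0.035), and for FOXA3 HSD17B8 (0.013) and EIF6 (0.026). Near CEBPA lay KREMEN2 (0.023). CEBPB lay nearest to NDST1 (0.052) and FAM120C (0.053), ONECUT1 to DDAH1 (0.041) and ESCO2 (0.059), and PROX1 to GORASP1 (0.036) and ZNF211 (0.050). No member was among the nearest genes of another.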

How the data were processed

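Total RNA of 6 HepG2 cultures was sequenced as single reads of 75 bases from directional libraries, with 250 ng of RNA each, per the labels' protocols. The authors deposited 1 table of log2 values, named as variance-stabilised. The submitters' processing notes list Trimmomatic, Salmon 1.2.1, DESeq2 and GRCh38, whereas the labels' protocols name STAR 2.6 and hg19, and the source of the table among these was not given in the sources used here. Gene positions are those of RefSeq GRCh38.p14, looked up by symbol.

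Normalised reads came from inverting the variance-stabilising curve, with 5.52 as the value without reads. Among values of up to 20 reads, 71.0% to 74.2% in a library were whole within 0.01. Whole reads were thus not recovered, which precluded a count test, and depth was read from the step of 1 read. Replicates of a group differed beyond sampling noise.

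Genes with a mean at least 0.5 above the lowest value entered limma 3.58.1 under R 4.3.3 (mean trend, two-sided, no covariate, all 6 libraries, Benjamini-Hochberg over 18723 genes), and the procedure was tested on simulated data. With 50 changed genes of each size among 18723, it recovered 14% of true log2 changes of 0.5, 66% of 1.0 and 92% of 2.0. A gene that was not called may therefore still have changed. The fit of the 6 libraries called 4202 of 18723 genes, a far larger share than was changed in the simulated data. Recovery at such a share was not tested. Differences within families had exact permutation tests (scipy 1.17.1). Transcript length and GC content came from a GENCODE annotation on GRCh37 and covered 98.6% of tested genes. The members and lists were chosen with earlier results of these data known. Named genes are the members, tested relatives and adjacent non-coding genes, up to 4 genes of each other list by lowest p, and 2 nearest profiles per member; a few genes of these are not reported here. CD24 and PECAM1 were not matched by name. Alternatives changed the filter, scaling, variance prior, weights of libraries, covariates (RNA integrity, replicate number, GC content and length), the threshold and the libraries included.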

Additional observations from a re-analysis of the deposited data

How the results depend on the processing

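Over the 8 factors and 20 alternatives each, 127 of 160 values kept their direction and their side of the threshold, 13 lost the call, 18 gained one and 2 changed sign (FOXA1, -0.16 with RNA integrity as a covariate, and -0.03 to 0.21 with libraries left out). The RNA integrity number moves with the treatment, so a fit that holds both separates their effects poorly. With it as a covariate 1 factor, 5 other liver factors and 721 genes in all were called lower. Called higher in that fit were 0 target genes, 1 other liver factor and 1149 genes in all. At an adjusted p under 0.01, 1 factor, 6 other liver factors, 7 target genes and 791 genes in all were lower, and 0 target genes and 1170 genes in all higher. With library weights 1 factor was higher, and 4473 genes in all were higher and 4554 lower. Target genes called higher were 0 with the stricter filter. Correction for GC and length gave 3072 genes lower, and with the replicate block as well 3670 lower and 2 target genes higher.

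With each library left out in turn, factors called lower numbered 1 to 6 and higher 0 to 1, other liver factors lower 6 to 14 and higher 2 to 4, target genes lower 9 to 16 and higher 0 to 1, and all genes lower 955 to 3993 and higher 1397 to 3647. The highest of each range for factors and for all genes was that without control replicate 3. Signs of uncalled genes turned for CEBPE (-0.03 with library weights, -0.05 with median centring, -0.06 with quantile normalization, -0.03 to 0.06 with libraries left out), CEBPA-DT (0.09 once corrected for GC and length, both alone and beside the replicate block), CEBPB-AS1 (-0.06) with RNA integrity as a covariate, and CD68 (0.05 after the same correction, alone and with the block, and with quantile normalization, 0.43 with RNA integrity, -0.21 to 0.08 with libraries left out). The cause of these shifts was not tested.

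The labels number the replicates alike in both groups, but nothing says that a number marks a shared culture or day. Deviations of same-numbered libraries from their group means correlated at -0.0883, 0.375 and 0.478. Whether the samples are paired was therefore not settled. With the replicate block 6 factors (HNF4A at an adjusted p of 0.0326 and CEBPA at 0.0131 beside the reported 4) and 3306 genes in all were called lower and 2 target genes higher; every GDF11 library except replicate 1 correlated best with the control of its own number.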
